A study of Homo sapiens with 4 samples.

Results

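The genes described here are the HIF alpha subunits and a set of hypoxia-response genes outside glycolysis, 10 gene symbols in all: HIF1A, EPAS1, VEGFA, NDRG1, ADM, BNIP3, BNIP3L, EGLN1, P4HA1 and CA9. They were chosen by symbol, with earlier results of these data known, and all 10 were found among the 19974 rows of each deposited table. The cells were HCT116, an established line from a human colorectal carcinoma. They were transfected for 36 h with 100 nM of a non-targeting control siRNA (si-NC) or of siRNA against the long noncoding RNA LINC00152 (si-152), with 2 biological replicates in each group, and total RNA was sequenced. Both groups were grown in the same serum-containing medium, and the labels name no low-oxygen treatment of either group. The question put to the data was whether suppression of LINC00152 changed the messenger RNA of these genes.

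HIF is a transcription factor built from an oxygen-labile alpha subunit (HIF1A or EPAS1) and a stable partner, ARNT. When oxygen is present, prolyl hydroxylases such as EGLN1 modify the alpha subunit, and the VHL ubiquitin ligase then marks it for destruction. When oxygen is low, the alpha subunit accumulates and drives genes for vessel growth, acid-base control, collagen processing and mitochondrial turnover, a programme that is often active in colorectal tumours. Since the alpha subunits are controlled mainly at the protein level, their messenger RNA does not report the activity of the factor.

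P4HA1 and NDRG1 were lower in si-152 than in si-NC, by 34.0% and 25.2% of the mean level, and passed an unadjusted p under 0.05. EPAS1 was 1.29 times as high in si-152 as in si-NC without passing that test, while its paralog HIF1A differed more between replicates than between groups. VEGFA, the most abundant of the 10, had overlapping groups. CA9 was at or near 0 in every library. None of the 10 genes passed adjustment over all genes tested, with an adjusted p of 0.807 by limma for P4HA1 and 1.000 for the other 8 tested.

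HIF binds hypoxia-response elements whose core is ACGTG, with GCGTG as the other common form. RefSeq promoter windows of GRCh38.p14, from 250 bases before to 50 bases after a gene's start, were matched for 7 of the 10 genes and were searched on both strands. VEGFA, NDRG1 and BNIP3L had no window and were not searched. The windows of P4HA1, EGLN1, CA9 and BNIP3 held ACGTG, against 21.4% of all 35116 windows. Each of those cores is given with 10 bases on either side, as the candidate sequence of the genes' shared factor, written 5′ to 3′ on the strand of the gene. Capitals mark the core, which reads CACGT where it lies on the opposite strand. Distances are from the RefSeq start of the window, which can differ from the GENCODE gene positions given further on. The stretches of P4HA1, EGLN1 and CA9 lie inside those GENCODE positions.
P4HA1 (chr10:73096938-73096962, minus strand, core from 86 bases before the start): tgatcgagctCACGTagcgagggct
EGLN1 (chr1:231422286-231422310, minus strand, core from 13 bases before the start): gccgtggtgtACGTGcagagcgcgc
CA9 (chr9:35673900-35673924, plus strand, core from 18 bases before the start): gtttccaatgCACGTacagcccgta
BNIP3 (chr10:131982042-131982066, minus strand, core from 133 bases before the start): cacgcgccgcACGTGccacacgcac
The BNIP3 core is part of the palindrome CACGTG, so it was found on both strands. GCGTG was found in the windows of EPAS1, ADM and BNIP3 and in 1 of the 2 windows of HIF1A, so in 4 of the 7 genes, against 36.5% of all windows. The windows of HIF1A, EPAS1 and ADM held no ACGTG. The windows with either core were rich in G and C, from 62.0% in CA9 to 80.7% in BNIP3. The shares over all windows took no account of base composition, and they count windows where the text counts genes. A match of these letters is a description of the window and does not show that HIF bound there in HCT116 cells.

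The unit of the values was taken to be FPKM, which divides the fragments of a gene by its length and by the mapped fragments of the library, so that levels can be compared between genes. Sequencing depth is unknown, and the summed FPKM lay between 424754 and 534311. The group difference was tested with limma on log2(FPKM + 1), a scale that understates the change of low genes, in 11222 genes that reached 1 FPKM in 2 or more of the 4 libraries. Of the 10 genes, 9 passed that filter, and CA9 did not. Of the colon epithelial markers, 7 of 10 were at a mean of at least 1 FPKM, with KRT8, KRT18, KRT19 and EPCAM high, while CDX1 and KRT20 were listed at 0 in every library. The epithelial markers summed to 3185 and 3711 FPKM in the si-NC libraries, and to 2540 and 3145 FPKM in the si-152 libraries, and the part of this in the values of the 10 genes was not tested. Markers of other cell types summed to between 3.28 and 4.92 FPKM for endothelium, 7.11 and 8.13 FPKM for fibroblasts, and 3.24 and 3.96 FPKM for leukocytes. PTPRC, EMCN and COL1A2 were among those at 0 throughout, while ESAM, COL1A1 and CD68 reached a mean of at least 1 FPKM. LINC00152 itself was not analysed here, and the extent of its suppression is therefore not given.

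In si-NC the mean levels ran from VEGFA, at 82.8 ± 15.6 FPKM (SD, n = 2), through NDRG1, HIF1A, ADM, BNIP3L, P4HA1, BNIP3 and EGLN1 to EPAS1, at 7.86 ± 0.64 FPKM (SD, n = 2). HIF1A and ADM, neighbours in that order, had overlapping replicates, and the other neighbours did not overlap. In si-152 the order was the same except that EPAS1 and EGLN1 changed places, and these 2 genes overlapped there. Among all tested genes, the mean over the 4 libraries placed VEGFA at percentile 92.6, NDRG1 at 88.4 and EPAS1 at 47.2.

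**Figure D1:**
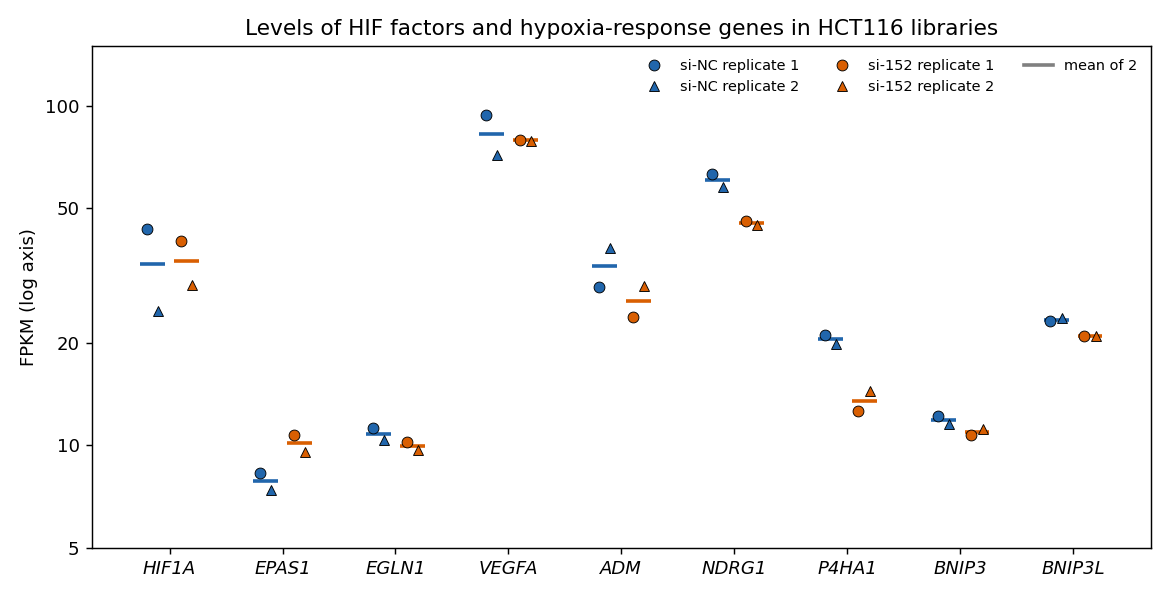
FPKM (log axis) of the 9 tested genes in each library, with circles for replicate 1, triangles for replicate 2 and bars for the mean of 2. The si-152 points of P4HA1 and NDRG1 lie below both si-NC points, those of EPAS1 lie above, and those of HIF1A and VEGFA fall within the range of si-NC.

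HIF1A (GRCh38 chr14:61695513-61748259, plus strand) encodes the broadly expressed alpha subunit. It was at 43.3 and 24.9 FPKM in si-NC replicates 1 and 2, and at 40.1 and 29.7 FPKM in si-152 replicates 1 and 2. Replicate 2 was the lower library in both groups, and both si-152 libraries lay between the si-NC libraries. The log2 fold change was 0.07 (standard error 0.26, 95% interval -0.51 to 0.64), with an unadjusted p of 0.800 by limma. Between libraries of the same number it was -0.11 in replicate 1 and 0.24 in replicate 2. The mean difference between replicates was -0.60 on the same scale, and 2.92% of all tested genes had a larger one in size. The replicate 2 libraries also had the larger summed FPKM in both groups, and the part of this in the HIF1A values was not tested.

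EPAS1 (chr2:46293667-46386703, plus strand) encodes the second alpha subunit, known best from endothelium and kidney cancer. It stood at 8.31 and 7.40 FPKM in si-NC, and at 10.7 and 9.55 FPKM in si-152. Both si-152 libraries lay above both si-NC libraries. The log2 fold change was 0.33 (standard error 0.18, 95% interval -0.08 to 0.74), and its unadjusted p of 0.102 by limma missed the threshold of 0.05. The difference was 0.33 in replicate 1 and 0.33 in replicate 2. The ratio of EPAS1 to HIF1A was 0.192 and 0.297 in si-NC, and 0.267 and 0.322 in si-152, so the groups overlapped in the balance of the subunits. The endothelial markers PECAM1, CDH5 and VWF were each at most 0.1 FPKM, and of that list only ESAM reached 1 FPKM.

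EGLN1 (chr1:231363751-231425044, minus strand) encodes the main oxygen-sensing prolyl hydroxylase and is itself a HIF target. It stood at 11.2 and 10.4 FPKM in si-NC, and at 10.2 and 9.71 FPKM in si-152. The groups did not overlap, but the gap between them was narrower than the spread within either group. Its log2 fold change was -0.11 (95% interval -0.50 to 0.29), with an unadjusted p of 0.563 by limma.

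VEGFA and ADM encode secreted products of the response. VEGFA (chr6:43770184-43786487, plus strand) is the main growth factor for blood vessels. It stood at 93.8 and 71.8 FPKM in si-NC, and at 79.3 and 78.9 FPKM in si-152. The si-152 libraries lay close together and between the si-NC libraries, so the groups overlapped. The log2 fold change was -0.05 (standard error 0.19, 95% interval -0.47 to 0.37) and the unadjusted p was 0.785 by limma, with -0.24 between the libraries numbered 1 and 0.13 between those numbered 2.

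ADM (chr11:10304680-10307397, plus strand) encodes adrenomedullin, a peptide that relaxes and protects vessels. It stood at 29.3 and 38.1 FPKM in si-NC, and at 23.8 and 29.5 FPKM in si-152. The groups overlapped narrowly, and in both of them replicate 2 was the higher library. The log2 fold change was -0.32 (standard error 0.19, 95% interval -0.76 to 0.11), with an unadjusted p of 0.125 by limma. Between same-numbered libraries it was -0.29 in replicate 1 and -0.36 in replicate 2. Without si-NC replicate 1 it was -0.51, with an unadjusted p of 0.0474, and it was -0.14 without si-NC replicate 2 and -0.17 without si-152 replicate 1.

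P4HA1 (chr10:73007217-73096974, minus strand) encodes the catalytic alpha subunit of collagen prolyl 4-hydroxylase, which hydroxylates proline in procollagen. It stood at 21.1 and 19.9 FPKM in si-NC, and at 12.6 and 14.5 FPKM in si-152. Both si-152 libraries lay well below both si-NC libraries. The means were 20.5 ± 0.82 FPKM in si-NC and 13.6 ± 1.30 FPKM in si-152 (SD, n = 2 each). The log2 fold change was -0.57 (standard error 0.17, 95% interval -0.95 to -0.18), the largest in size among the 9 tested genes, with -0.70 in replicate 1 and -0.44 in replicate 2. Its unadjusted p was 0.00824 by limma, at rank 113 of all tested genes, and its adjusted p was 0.807. Without si-152 replicate 1 the log2 fold change was -0.48 and the unadjusted p rose to 0.0688.

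NDRG1 (chr8:133237171-133302022, minus strand) encodes a cytoplasmic protein linked to stress, differentiation and restraint of metastasis. It stood at 63.1 and 57.8 FPKM in si-NC, and at 45.9 and 44.5 FPKM in si-152. The groups did not overlap, and the gap between them was larger than the spread within either. The means were 60.5 ± 3.77 FPKM and 45.2 ± 0.98 FPKM (SD, n = 2 each), and the log2 fold change was -0.41 (standard error 0.16, 95% interval -0.78 to -0.04), with -0.45 in replicate 1 and -0.37 in replicate 2. The unadjusted p was 0.0316 and the adjusted p was 1.000 by limma. The unadjusted p was above 0.05 with any single library left out (0.0640 to 0.193, log2 fold change -0.47 to -0.35), and was 0.0523 with quantile normalization.

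BNIP3 and BNIP3L encode related mitochondrial outer membrane proteins that recruit the autophagy machinery to mitochondria. BNIP3 (chr10:131966455-131982013, minus strand) stood at 12.2 and 11.6 FPKM in si-NC, and at 10.8 and 11.2 FPKM in si-152. BNIP3L (chr8:26382898-26505636, plus strand) stood at 23.2 and 23.6 FPKM in si-NC, and at 21.0 and 21.0 FPKM in si-152. In both genes the si-152 libraries lay below the si-NC libraries, narrowly so in BNIP3. In BNIP3L the gap between the groups was larger than the spread within either. For BNIP3 the log2 fold change was -0.11 (95% interval -0.50 to 0.27), with an unadjusted p of 0.532 by limma. For BNIP3L it was -0.15 (95% interval -0.51 to 0.21), with an unadjusted p of 0.372 by limma. BNIP3L was between 1.88 and 2.04 times as abundant as BNIP3 in every library.

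CA9 (chr9:35673856-35681159, plus strand) encodes a carbonic anhydrase at the cell surface that is widely used as a tissue marker of hypoxia. It was at 0.0851 FPKM in si-NC replicate 1 and listed at 0 in the other 3 libraries. No fold change can be given, and a listed 0 here is a value of the table with an unknown number of reads behind it.

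The exons of 5 of these genes (HIF1A, VEGFA, BNIP3L, P4HA1 and CA9) overlap those of a gene on the opposite strand in GENCODE release 29. HIF1A also has an exon overlap on its own strand. The same annotation lists 39 pseudogenes named after BNIP3, 1 named after HIF1A and 1 named after EGLN1. Whether the libraries kept strand is not given in the sources used here, so reads of opposite-strand partners cannot be told apart in these values. How reads that also match a pseudogene were assigned is not given either.

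Of the 9 tested genes, 2 had an unadjusted p under 0.05 by limma, both lower in si-152. Over all tested genes, 2.50% were lower and 1.89% higher at that threshold (4.38% in either direction). With a fold change above 1.5 required as well, 0 of the 9 passed, against 1.66% of all tested genes (1.06% lower and 0.597% higher), and P4HA1 lay just under that fold on the log2(FPKM + 1) scale, at 1.48. The ratio of its mean FPKM was 1.51, and it passed both thresholds with a pseudocount of 0.1, with size factors and with quantile normalization. At an adjusted p under 0.05, 0 of the 9 and 0.0178% of all tested genes passed. The si-152 libraries lay below both si-NC libraries in 5 of the 9 genes (EGLN1, P4HA1, NDRG1, BNIP3 and BNIP3L) and above in 1 (EPAS1). Over all tested genes these shares were 13.9% and 16.5%, or 30.4% in either direction. In 6 of the 9 genes si-152 was lower in both same-numbered pairs, against 27.3% of all tested genes. The log2 fold change was negative in 7 of the 9, against 45.8%. The median log2 fold change of the 9 genes was -0.11, and that of all tested genes was 0.02. The libraries are bulk RNA, so fewer expressing cells and less RNA per cell cannot be told apart.

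**Figure D2:**
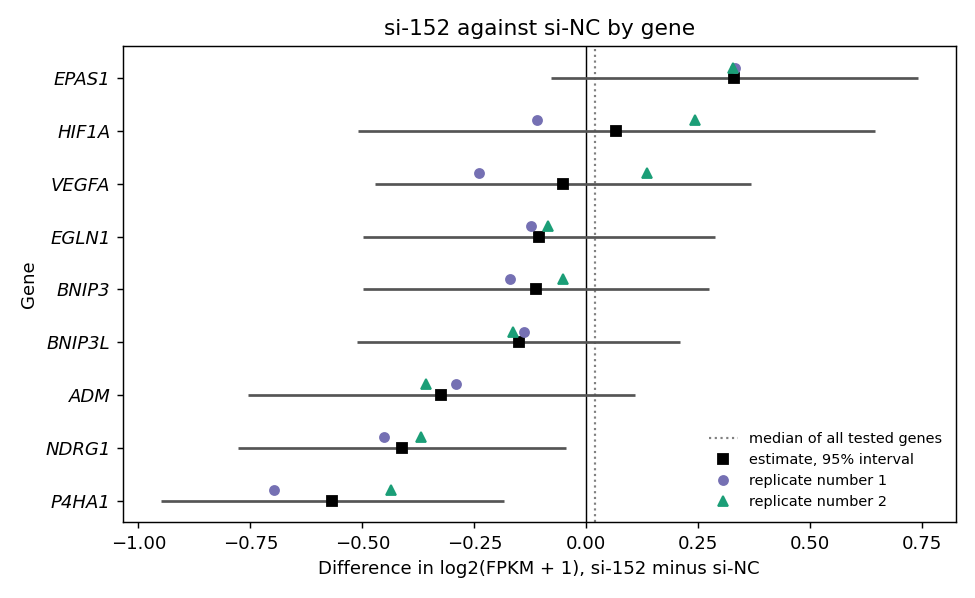
Difference in log2(FPKM + 1) between si-152 and si-NC for the 9 tested genes, with squares and bars for the limma estimate and its 95% interval, and circles and triangles for the libraries numbered 1 and 2. The intervals of P4HA1 and NDRG1 leave out 0, the 2 points of HIF1A and of VEGFA fall on opposite sides of 0, and the dotted line is the median of all tested genes, 0.02.

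Group and replicate differences were set side by side for each gene. The replicate difference is the signed mean of both groups, so opposite directions cancel. This occurred in P4HA1 (-0.077 in si-NC and 0.18 in si-152) and BNIP3 (-0.072 in si-NC and 0.047 in si-152). In EGLN1 the si-NC replicates alone differed by -0.104, about the size of its group difference of -0.105. The group difference was the larger in size for P4HA1, NDRG1 and EPAS1, with mean replicate differences of 0.05, -0.08 and -0.15, and also for BNIP3, BNIP3L and EGLN1, with -0.012, 0.012 and -0.085. For HIF1A and VEGFA the replicate difference was the larger, and for ADM they were about equal in size (0.33 between replicates and -0.32 between groups).

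**Figure D3:**
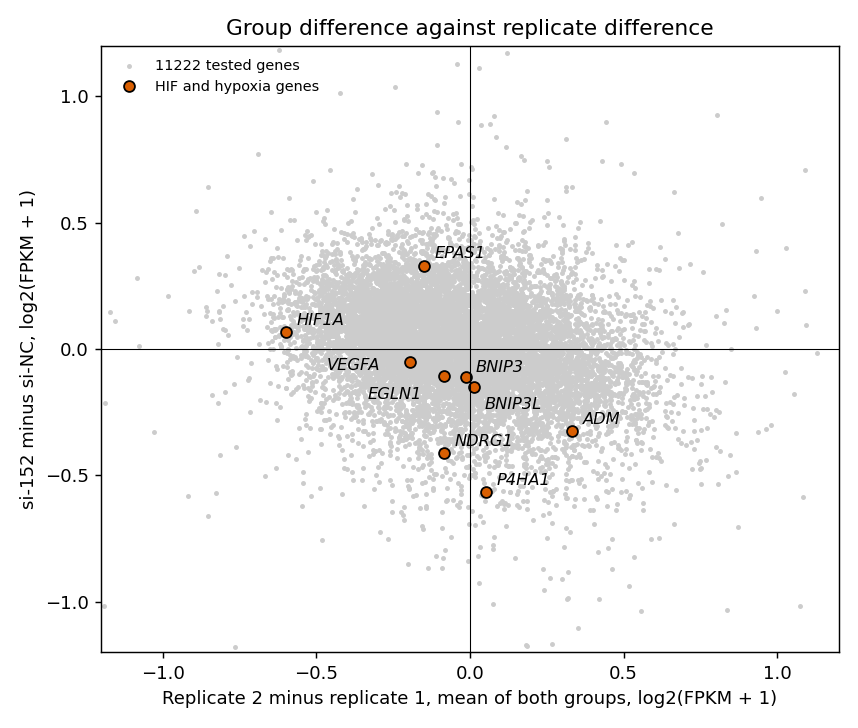
Difference between groups (vertical, si-152 minus si-NC) against the mean difference between replicates (horizontal, replicate 2 minus replicate 1), both in log2(FPKM + 1), for the 9 genes in orange and all tested genes in grey. P4HA1 and NDRG1 lie low near the vertical axis, HIF1A lies far left near the horizontal axis, and 49 tested genes fall outside the axis limits of 1.2.

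The other genes of the pathway were described in 8 lists by role, with 146 symbols, of which 120 were tested. Of these, 6 had an unadjusted p under 0.05 by limma (5%, near the 4.38% of all tested genes), with 5 lower and 1 higher in si-152, and 0 passed adjustment.

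Among 20 tested partners, oxygen sensors and cofactors of HIF, 2 were lower at an unadjusted p under 0.05 and 18 did not pass. VHL, the substrate receptor of the ligase that destroys the alpha subunits, stood at 29.5 and 26.2 FPKM in si-NC, and at 21.0 and 18.5 FPKM in si-152. Both si-152 libraries were lower, by -0.47 on the log2 scale (standard error 0.17), with an unadjusted p of 0.0198 by limma. EGLN3, the prolyl hydroxylase most strongly induced by hypoxia, stood at 2.68 and 2.64 FPKM in si-NC, and at 1.56 and 1.65 FPKM in si-152. Its difference was -0.49 on the log2 scale (standard error 0.19), with an unadjusted p of 0.0315 by limma. VHL lost the threshold without si-NC replicate 1 or without si-152 replicate 2, with an unadjusted p of 0.120 in either case, and EGLN3 lost it whichever single library was left out, with p-values from 0.0948 to 0.157. ARNT, the stable partner, stood at 6.13 and 4.78 FPKM in si-NC, and at 7.16 and 5.28 FPKM in si-152, where the groups overlapped. HSP90AB1, a chaperone of the alpha subunits, and GNB2L1, the scaffold also named RACK1, had the highest levels of this list, and their groups overlapped. The median of the list was 0.06.

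Of 32 tested HIF targets outside glycolysis other than the 10 genes, 0 passed an unadjusted p under 0.05 in either direction by limma, and the median log2 fold change was -0.06. DDIT4, an inhibitor of growth signalling through mTOR, was the most abundant, at 428.6 and 483.6 FPKM in si-NC and at 374.5 and 378.4 FPKM in si-152. Both si-152 libraries were lower, but the interval of the log2 fold change of -0.27 ran from -0.77 to 0.22, with an unadjusted p of 0.244 by limma. With quantile normalization it was -0.12, with an unadjusted p of 0.437. PLAUR, the urokinase receptor, stood at 79.5 and 82.6 FPKM in si-NC, and at 57.2 and 78.4 FPKM in si-152, with most of the difference in replicate 1. Without si-152 replicate 2 its log2 fold change was -0.50 and its unadjusted p was 0.0378, and without si-152 replicate 1 these were -0.047 and 0.842.

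Among the 21 glycolytic targets, 1 was lower, 1 higher and 19 did not pass, with a median of -0.05. ALDOC, an aldolase, stood at 22.8 and 23.0 FPKM in si-NC, and at 14.4 and 14.3 FPKM in si-152. The difference on the log2 scale was -0.64 (standard error 0.16), with an unadjusted p of 0.00314 and an adjusted p of 0.678 by limma. PFKL, a phosphofructokinase, went the other way, with 17.5 and 20.4 FPKM in si-NC against 27.7 and 29.8 FPKM in si-152. Its difference on the log2 scale was 0.58 (standard error 0.17), with an unadjusted p of 0.00680 and an adjusted p of 0.760 by limma. Without si-NC replicate 1 the p of PFKL was 0.0591. The 2 most abundant, GAPDH and ENO1, had overlapping groups, with log2 fold changes of -0.01 and 0.09, and the sign of GAPDH turned with quantile normalization (0.16).

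Of 15 ligands and receptors for VEGF and adrenomedullin, 5 were tested and 4 were listed at 0 in every library. PGF, a ligand of the VEGF family, stood at 2.90 and 4.53 FPKM in si-NC, and at 2.29 and 2.00 FPKM in si-152. Both si-152 libraries were lower, by -0.56 on the log2 scale (standard error 0.23), with an unadjusted p of 0.0327 by limma. Without si-NC replicate 2 the difference was -0.31 and the unadjusted p was 0.280, and without si-NC replicate 1 these were -0.82 and 0.00410. The threshold was also lost without si-152 replicate 1 (-0.63, with a p of 0.0597), without si-152 replicate 2 (-0.50, with a p of 0.133) and with no filter on low values (a p of 0.0687). The VEGF receptor KDR was between 0.146 and 0.228 FPKM, and FLT1 was listed at 0 in every library. NRP1, a co-receptor, stood at 9.91 and 9.26 FPKM in si-NC, and at 8.79 and 9.13 FPKM in si-152. RAMP1, a receptor accessory protein, stood at 36.5 and 45.5 FPKM in si-NC, and at 34.4 and 50.01 FPKM in si-152.

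Next to BNIP3 and BNIP3L, 0 of 16 tested mitophagy receptors and autophagy adaptors passed an unadjusted p under 0.05 by limma, with a median of -0.0062. SQSTM1, an adaptor that ties cargo to the autophagosome, stood at 433.2 and 440.5 FPKM in si-NC, and at 474.4 and 502.8 FPKM in si-152 (log2 fold change 0.16, 95% interval -0.34 to 0.66). GABARAP had overlapping groups.

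Next to P4HA1, 0 of 14 tested genes for collagen hydroxylation and crosslinking passed an unadjusted p under 0.05 by limma, and the median was -0.09. P4HA2, the other main alpha subunit of collagen prolyl hydroxylase, was named after its values were seen. It stood at 14.3 and 15.6 FPKM in si-NC, and at 15.2 and 16.7 FPKM in si-152 (log2 fold change 0.08, standard error 0.17). P4HB, the beta subunit shared by these enzymes, stood at 629.9 and 653.8 FPKM in si-NC, and at 671.5 and 790.6 FPKM in si-152. That difference was 0.18 on the log2 scale (95% interval -0.38 to 0.75), with an unadjusted p of 0.485 by limma. With quantile normalization it was 0.31, with an unadjusted p of 0.0352. PPIB, an isomerase that works on procollagen, had overlapping groups.

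Next to CA9, 9 of 12 carbonic anhydrases and acid-base transporters were tested, and 1 passed. CA13, a cytosolic carbonic anhydrase, stood at 7.79 and 6.82 FPKM in si-NC, and at 5.595 and 4.49 FPKM in si-152. It was lower by -0.46 on the log2 scale (standard error 0.20), with an unadjusted p of 0.0418 by limma. Its p was above 0.05 without si-NC replicate 1 (0.147), si-152 replicate 1 (0.0698) or si-152 replicate 2 (0.308), and with no filter on low values (0.0627). CA12, the other HIF-driven enzyme at the cell surface, was between 0.512 and 0.782 FPKM and was not tested. BSG, a chaperone of lactate transporters, had overlapping groups, and SLC4A2, an anion exchanger, stood at 31.4 and 29.1 FPKM in si-NC, and at 35.9 and 32.0 FPKM in si-152.

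Next to NDRG1, 0 of the other 3 NDRG genes passed an unadjusted p under 0.05 by limma, with a median of -0.21. NDRG2 stood at 4.27 and 5.30 FPKM in si-NC, and at 3.23 and 3.81 FPKM in si-152 (log2 fold change -0.35, standard error 0.20), with an unadjusted p of 0.114 by limma. NDRG3 stood at 8.02 and 7.63 FPKM in si-NC, and at 8.57 and 8.20 FPKM in si-152 (log2 fold change 0.09, standard error 0.18).

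**Figure D4:**
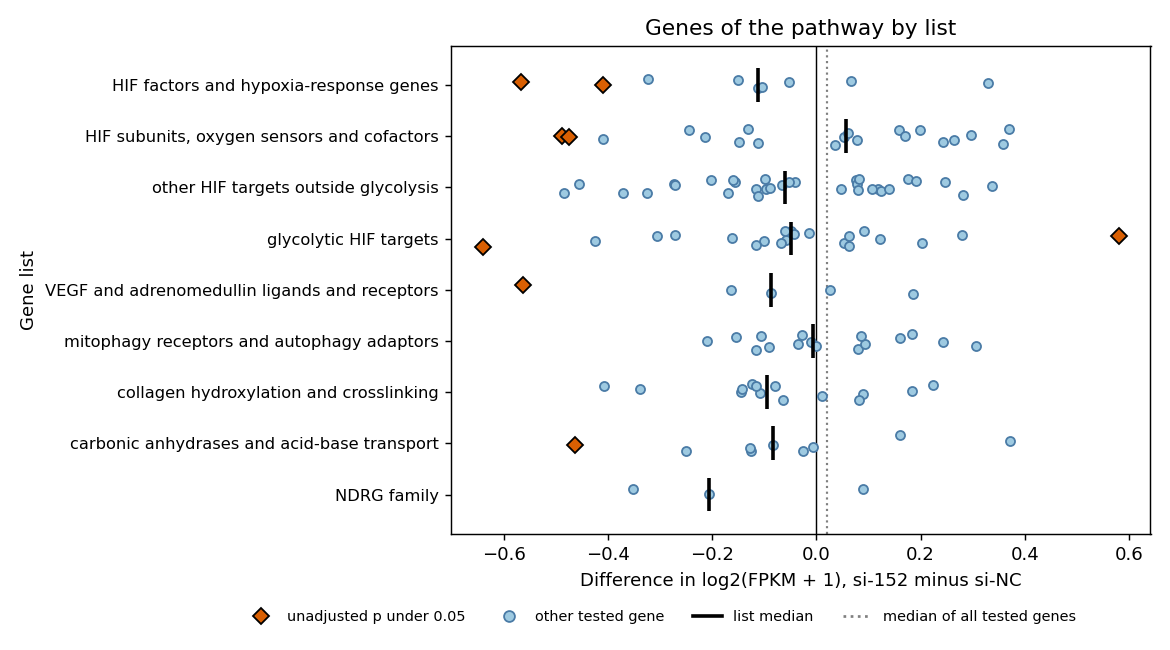
Difference in log2(FPKM + 1) between si-152 and si-NC for each tested gene of the 9 lists (horizontal), 1 point per gene, with diamonds for an unadjusted p under 0.05, bars for list medians and a dotted line for the median of all tested genes. The list medians lie between -0.21 and 0.06, and the diamonds run from ALDOC at -0.64 to PFKL at 0.58.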

How the data were processed

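RNA from 4 HCT116 libraries (si-NC and si-152, 2 biological replicates each, 36 h, 100 nM siRNA) was analysed. The authors deposited 1 table per library with 1 FPKM value per gene symbol. The unit was inferred from the values, since no header names it. The submitters' processing notes name GRCh38, Trimmomatic, TopHat, HISAT2, HTSeq and DESeq. The annotation and strand setting are not given in the sources used here. The study's test used counts, which were not used here.

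No scaling was applied. log2(FPKM + 1) was compared between groups in 11222 genes by limma (version 3.58.1, R version 4.3.3, trend in the variance allowed), with Benjamini-Hochberg adjustment over all of them. The fit was run on simulated data with independent errors and planted shifts larger than any in the hypoxia genes. That run does not bear on smaller shifts or on likeness between same-numbered libraries. Depth is unknown, so no counting error is given. The p-values and intervals rest on the spread between 2 replicates, which limma moderates toward a trend across all tested genes. They are therefore not a measure of a gene's own replicate scatter alone. An exact permutation test of 2 against 2 libraries cannot give a two-sided p below 0.333, so the p-values are those of limma. Groups and replicate numbers came from the labels. In the symbol column, 28 entries had become dates and 2 occurred more than once.

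The 10 genes, the 8 lists and the tests were chosen with earlier results of these data known. Named genes were the 10 genes and, in each list, those with an unadjusted p under 0.05 and the 2 most abundant. ARNT, KDR, FLT1, CA12 and P4HA2 were named outside that rule, after their values were seen. In all, 5 list symbols were matched by older names through RefSeq. Promoter windows came from RefSeq and gene positions from GENCODE release 29. Alternatives covered pseudocount, filter, scaling, variance trend, replicate block and each library left out.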

Additional observations from a re-analysis of the deposited data

How the results depend on the processing

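Labels give no shared batch or day for a replicate number, so the numbers were not taken to pair the libraries, although deviations of same-numbered libraries correlated at 0.52 across genes. With the replicate number as a block, 4 of the 10 genes passed an unadjusted p under 0.05 in place of 2: EPAS1, ADM, NDRG1 and P4HA1, while the share of all tested genes past that threshold went from 4.38% to 16.9%. Their unadjusted p-values by limma were 0.0167, 0.0153, 0.00449 and 0.00101, and their adjusted p-values were 0.198, 0.193, 0.120 and 0.0659. Under the block, 8 of 20 HIF partners and sensors, 7 of 32 other targets and 6 of 21 glycolytic targets passed an unadjusted p under 0.05. So did 1 of 5 VEGF and adrenomedullin genes, 1 of 16 mitophagy genes and 2 of 14 collagen genes. The counts were 2 of 9 for carbonic anhydrases and transporters and 1 of 3 for NDRG genes. All of these are to be read against the same 16.9%. Over all tested genes, 78 passed adjustment under the block. They included ALDOC, with an adjusted p of 0.0412, and no other gene of the lists passed adjustment under the block. Of all tested genes, 1 passed adjustment with a pseudocount of 0.1, with no filter, with size factors, with quantile normalization or without the variance trend, and 0 when all 4 libraries had to reach 1 FPKM (2 as reported). With a pseudocount of 0.1, with size factors or with quantile normalization, 1 of the 10 genes, P4HA1, passed the p and the 1.5-fold threshold together. Quantile normalization left 1 of the 10 past the p threshold, and gave 1 other target and 2 collagen genes past it. With no filter, 1 other target and 1 mitophagy gene passed. In the collagen list, 1 gene passed with size factors and 1 without the variance trend. Quantile normalization turned the sign of BSG (0.079), GAPDH (0.16), GNB2L1 (0.055) and PPIB (0.012). When single libraries were left out, the lone library of a group is assumed to vary like the other group. The count of all genes past p and fold then ran from 242 to 546 (186 as reported) and past adjustment from 45 to 78. Of the 10 genes, 0 to 2 passed p (0 without si-152 replicate 1, 2 without si-NC replicate 1, where ADM took the place of NDRG1) and 0 to 1 passed p and fold. The share of all tested genes past p alone ran from 2.76% to 6.45% in these fits. By list the counts ran from 1 to 3 for partners and sensors, 0 to 4 for other targets, 1 to 2 for glycolytic targets, 0 to 1 for VEGF and adrenomedullin genes, 0 to 1 for collagen genes and 0 to 1 for carbonic anhydrases and transporters. Signs turned for HIF1A (-0.32 to 0.45), VEGFA (-0.24 to 0.14), BSG (-0.087 to 0.074), ENO1 (-0.031 to 0.21), GABARAP (-0.32 to 0.090), GAPDH (-0.085 to 0.056), HSP90AB1 (-0.089 to 0.20), PPIB (-0.43 to 0.15) and RAMP1 (-0.24 to 0.29). The cause of these shifts was not tested, and the alternatives left the sign of the other 7 tested genes of the 10 unchanged. CA9 has no tested value.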
